A study of Xenopus tropicalis with 39 samples.

Results

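The dense clusters described here are stretches of the Xenopus tropicalis genome in which 10 or more regions bound by the transcription factors Vegt, Otx1 or Foxh1 lay close together. Peaks of the 3 factors that overlapped by at least 1 bp were merged into 55220 bound regions, and regions on the same chromosome or scaffold with gaps of at most 12.5 kb were stitched. Of the 27472 stretches this gave, 222 held 10 or more regions, 11904 held 2 to 9 regions and 15346 were single regions. The dense clusters were chosen by the positions of the factor peaks alone, so their number, size, factor make-up and peak strength are descriptions; the histone mark H3K4me1 had no part in the choice.

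Vegt is a T-box factor and Otx1 a homeodomain factor, and the RNAs of both are supplied by the mother and enriched in the vegetal part of the frog egg, from which the endoderm forms. Foxh1 is a forkhead factor that partners with Smad proteins in Nodal signalling, the pathway that induces mesoderm and endoderm. Enhancers are stretches of DNA from which such factors act on genes, and monomethylation of lysine 4 of histone H3 (H3K4me1) is found at enhancers, whether active or not yet active. Groups of neighbouring enhancers with very high factor or mediator signal are known as super enhancers, and stitching neighbouring sites is the usual first step in finding them. The stretches here were not ranked by read signal and are called clusters for that reason.

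The series held 39 samples, of which 6 were chromatin immunoprecipitation (ChIP) samples. Vegt and Otx1 were each precipitated from whole embryos at stage 8, before the embryo's own genes are switched on (2 samples each). H3K4me1 was precipitated from vegetal masses, the prospective endoderm, that were dissected from fixed embryos at stage 10.5 (2 samples). The labels give no injected RNA, morpholino or mutation for these samples. Foxh1 peaks came from libraries of another series that the authors processed again, and 1 library of that series also served for the Vegt and Otx1 lists. The Foxh1 list's peak names place it at stage 8. The 33 RNA samples of the series are not used here, since their tables give no positions.

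The Vegt and Otx1 peaks and the mark therefore came from different tissue and stages. Whole embryos mix animal and vegetal cells, while H3K4me1 was read in vegetal tissue alone and later. For Foxh1 the peak names give the stage, and the tissue is not given here. The names of the H3K4me1 peaks contain the letters meso, whereas the labels say vegetal mass, and the label was followed. The authors deposited 1 peak list for each factor and the mark, called on pooled replicates per the peak names, so there is no replicate error and no test between groups below. Shares are given with 95% Wilson intervals and medians with 95% binomial order-statistic intervals. These cover counting error only, and are too narrow where neighbouring regions resemble each other. The read depth behind the lists is unknown. The lists held 21711 Vegt, 5151 Otx1, 39218 Foxh1 and 15925 H3K4me1 peaks. The genome build is not given in the sources used here, so positions are those of the files and no gene is named.

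Dense clusters were long but thinly covered by bound DNA. Their median length was 43057 bp (interval 40813 to 46447), with a range of 15009 to 166928 bp, against a median of 8531.5 bp (8351 to 8732) in clusters of 2 to 9 regions. Together they spanned 10.3 Mb and held 2816 regions, or 5.10% of all bound regions. The bound regions covered a median of 12.1% of a dense cluster's length, against 12.0% in clusters of 2 to 9 regions, and both groups were thus covered to a like extent. The median gap between neighbouring regions was 2187 bp (2022 to 2372) in dense clusters and 3434.5 bp (3371 to 3517) in clusters of 2 to 9, and gaps of at most 1000 bp made up 31.1% and 22.1% of gaps in that order. The median number per length was 2.78 regions per 10 kb (2.63 to 2.93) in dense clusters and 3.26 (3.20 to 3.32) in clusters of 2 to 9. A cluster's length runs from its first to its last region, so it has fewer gaps than regions. This raises number per length and bound share in clusters of few regions, so neither value compares packing between the groups. Dense refers here to the number of regions in a cluster. Regions themselves had a median length of 373 bp in dense clusters, 332 bp in clusters of 2 to 9 and 303 bp when single.

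Most dense clusters were close to the minimum size. Exactly 10 regions were found in 75 of the 222, and 10 to 13 regions in 168, while 4 had more than 20. On either side of the threshold the values were as follows. The 75 clusters of 10 regions had a median length of 37609 bp, 11.1% of their regions held all 3 factors and 21.5% overlapped H3K4me1. The 128 clusters of 9 regions had a median length of 31294.5 bp, with 9.29% and 17.1%, and the 40 clusters of 11 regions had 44331 bp, 9.77% and 18.2%. In both shares the clusters of 11 regions lay between those of 9 and those of 10. Median length rose from 9 to 10 to 11 regions, and was 30953 bp in the 185 clusters of 8.

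The cluster with the most regions lay at Chr06:32858973-32985970, where 54 regions were spread over 127 kb. Foxh1 was on 50 of them and was alone on 42, Vegt was on 9 and Otx1 on 6, and 2 regions held all 3 factors. The next, at Chr05:118119820-118286747, was the longest, with 46 regions over 167 kb, of which 44 had Foxh1, 7 had Vegt and 7 had Otx1. These 2 clusters differed in H3K4me1. In the Chr06 cluster 6 of 54 regions overlapped the mark, and 7.55% of its length was under 14 H3K4me1 peaks. In the Chr05 cluster 29 of 46 regions did, and 25.2% of its length was under 38 H3K4me1 peaks, more peaks than in any other dense cluster.

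**Figure D1:**
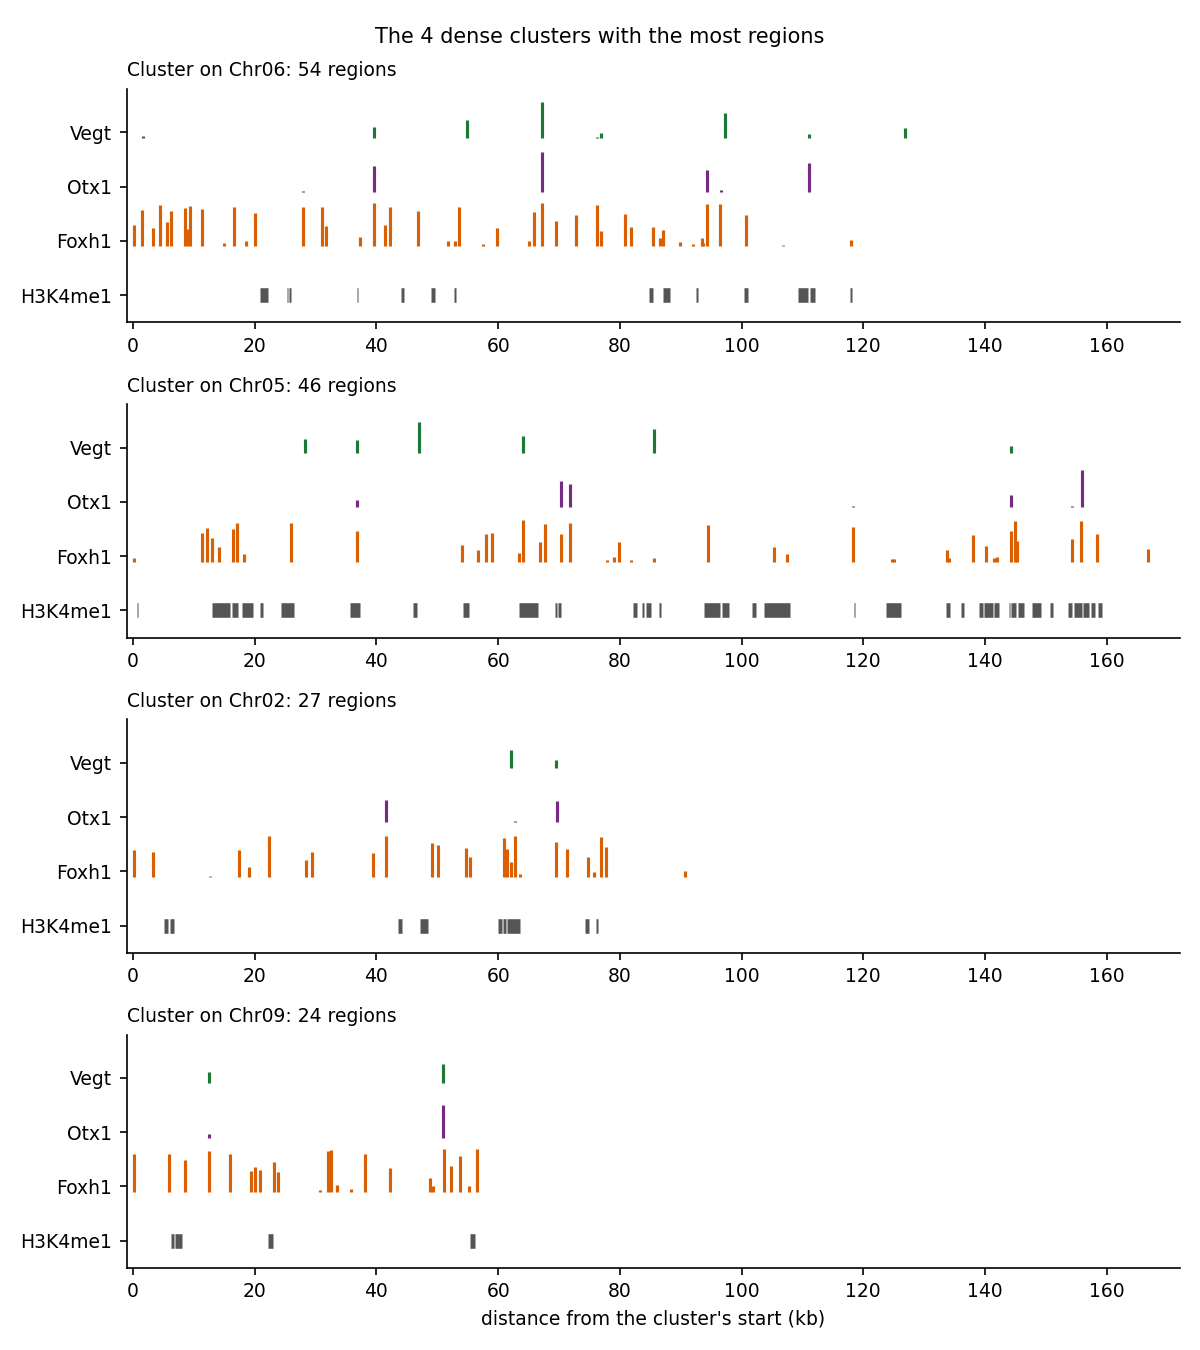
Positions of peaks in the 4 dense clusters with the most regions, as distance from the cluster's start in kb. Vertical ticks stand at summits of Vegt, Otx1 and Foxh1 peaks, with a height in proportion to the authors' fold ranked within that factor's list, and grey bars are H3K4me1 peaks. Foxh1 ticks far outnumber the others in all 4, and H3K4me1 bars are most frequent in the Chr05 cluster.

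The cluster at Chr02:142894918-142985744 had 27 regions over 90.8 kb, with Foxh1 on all 27, Otx1 on 3 and Vegt on 2. On Chr09 a pair of large clusters lay 36880 bp apart: 24 regions at Chr09:59881807-59938772, all with Foxh1, and 19 regions at Chr09:59975653-60044606, also all with Foxh1. The second of these had no Vegt peak and 1 Otx1 peak. The 5 other clusters among the 10 with the most regions lay at Chr01:131223970-131339771, Chr01:68694019-68788462, Chr08:83583690-83649728, Chr03:76594283-76673544 and Chr03:86579504-86648421, and had 19 or 20 regions each. Foxh1 was on 16 to 19 of the regions in these 5.

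Foxh1 was the most frequent factor in the dense clusters, and the shares of Foxh1 and Otx1 were higher there than elsewhere. Foxh1 was on 82.4% of regions in dense clusters (81.0 to 83.8), on 72.8% in clusters of 2 to 9 and on 64.3% of single regions. Otx1 was on 17.5% (16.1 to 19.0), 9.91% and 6.29% in the same groups. Vegt ran the other way, on 35.7% (33.9 to 37.5), 38.6% and 41.5%. Measured against the lists, dense clusters held 9.69% of all Otx1 peaks, 5.93% of all Foxh1 peaks and 4.64% of all Vegt peaks. The Foxh1 list is the longest, and without it 13 clusters reached 10 regions, against 114 without the Vegt list and 222 without the Otx1 list.

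Regions with all 3 factors made up 10.6% of regions in dense clusters (298 of 2816, interval 9.50 to 11.8), against 4.70% in clusters of 2 to 9 (1740 of 37058), 1.81% of single regions (277 of 15346) and 4.19% of all bound regions. Dense clusters thus held 298 of the 2315 regions bound by all 3 factors, or 12.9%. Vegt-alone regions were 15.8% of regions in dense clusters, against 25.2% in clusters of 2 to 9 and 33.0% of single regions. Foxh1-alone regions were 59.1%, 57.8% and 56.0%, so this most common class differed little. Otx1 was rarely alone in any group, on 2 of 2816 regions in dense clusters (0.07%), 0.28% in clusters of 2 to 9 and 0.65% of single regions. Otx1 with Foxh1 but no Vegt made up 5.15%, against 3.28% and 1.85%.

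**Figure D2:**
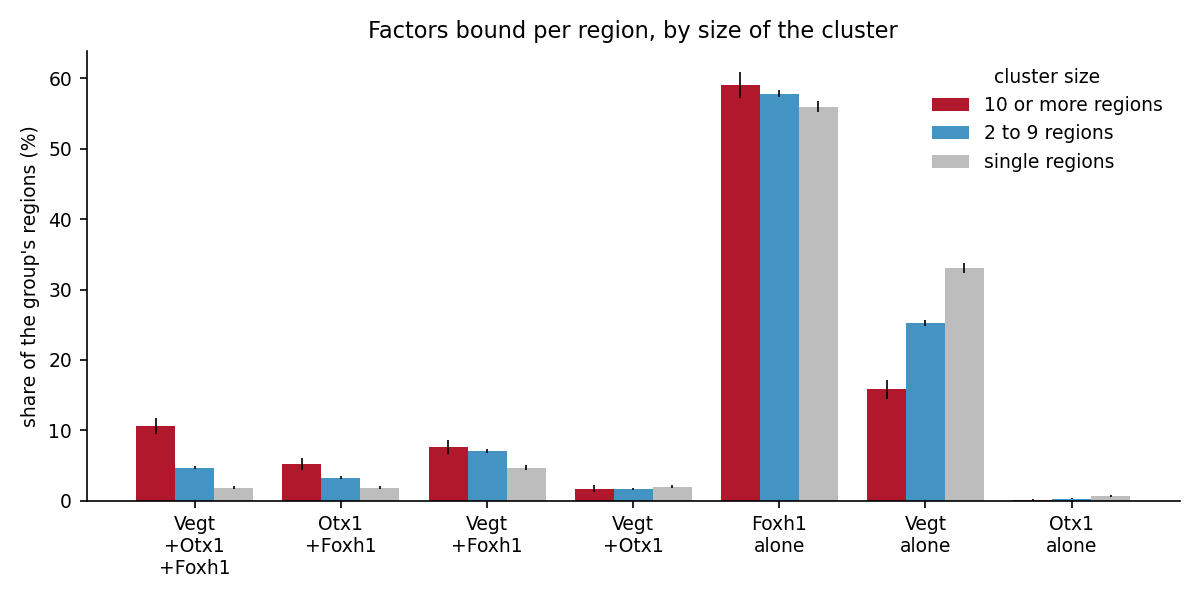
Share of bound regions (%) with each combination of factors, for regions in clusters of 10 or more regions, in clusters of 2 to 9 and single regions; error bars are 95% Wilson intervals. Regions with all 3 factors are 10.6%, 4.70% and 1.81% in that order, and Vegt-alone regions are 15.8%, 25.2% and 33.0%.

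Counted by cluster, 187 of the 222 dense clusters (84.2%) had each of the 3 factors somewhere within them, against 19.1% of clusters of 2 to 9 regions. At least 1 region bound by all 3 was found in 148 dense clusters (66.7%, 60.2 to 72.5). Among clusters of 2 to 9 regions 12.6% had such a region, and among all clusters of 2 or more regions 13.6% had. Dense clusters also hold more regions, and the part of this number in these differences was not tested. In dense clusters the number of 3-factor regions was 0 in 74, 1 in 72, 2 in 35, 3 in 21 and 4 or more in 20. Vegt was absent from 7 dense clusters, Otx1 from 30 and Foxh1 from 1. Vegt was thus present in 96.8% of dense clusters, Otx1 in 86.5% and Foxh1 in 99.5%. In clusters of 2 to 9, which hold fewer regions, these shares were 68.4%, 24.7% and 91.1%.

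The 3 dense clusters with the most 3-factor regions had 7, 6 and 6. The first lay at scaffold_48:9465-49659, where 13 regions lay in 40.2 kb, 11 with Vegt, 9 with Otx1 and 11 with Foxh1. Some of its peaks were high in their lists. The region at scaffold_48:14141-14558 had folds over background of 22.9 for Vegt, 7.14 for Otx1 and 29.9 for Foxh1. The region at scaffold_48:19105-19555 had 12.3, 10.3 and 25.2. These are the authors' folds, and they are compared within a factor's list alone. Against list medians of 8.65 for Vegt, 4.68 for Otx1 and 14.4 for Foxh1, each of these 6 values was above its list's median. Other peaks of the cluster were below it, such as Vegt at 5.67 (scaffold_48:17698-18028), Otx1 at 3.39 (scaffold_48:22904-23200) and Foxh1 at 10.9 (scaffold_48:9465-9671). None of the 13 regions (0) overlapped an H3K4me1 peak. The other two were at Chr03:86579504-86648421, with 19 regions of which 6 overlapped H3K4me1, and at Chr07:91343029-91399992, with 16 regions of which 11 did.

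The closest packing among dense clusters was found in 3 short ones. At Chr09:23388877-23403885, the shortest dense cluster, 12 regions lay within 15009 bp and covered 49.2% of it, and Foxh1 was on all 12. At scaffold_94:143517-160551, 11 regions covered 53.2% of 17035 bp. Vegt was on all 11 and Foxh1 on 1, the reverse of the usual make-up. It held a pair of regions of 1063 and 1059 bp with Vegt folds of 33.2 and 33.1. Whether these are copies of 1 sequence was not tested, since no genome of the files' build was used. The region at the first of these, scaffold_94:146777-147839, had the highest Vegt fold in any dense cluster. At scaffold_21:591684-609663, 11 regions covered 32.8% of 17980 bp, with Foxh1 on 10.

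Peak strength was close to that of the rest of the list for Otx1 and Vegt, and somewhat higher for Foxh1. A fold percentile of 50 is the middle of the factor's list. Foxh1 peaks in dense clusters had a median percentile of 57.4 (54.8 to 59.8), against 51.4 in clusters of 2 to 9 and 45.4 for single regions, with median folds of 15.7, 14.6 and 13.7. Otx1 peaks had 52.7 (47.4 to 58.2), 48.8 and 52.2, with overlapping intervals, and Vegt peaks had 47.4 (44.1 to 50.6), 49.8 and 51.3. Strong peaks followed the same order by factor. Of the top 5% of the Foxh1 list by fold, 8.99% lay in dense clusters (176 peaks, 7.80 to 10.3), where 5.93% of the whole list lay, below this interval. For Otx1 this was 12.8% (33 peaks; 9.25 to 17.4) beside 9.69%, and for Vegt 4.42% (48 peaks; 3.35 to 5.81) beside 4.64%, so for Otx1 and Vegt the share of the whole list lay inside the interval.

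Strength also differed between classes of regions. Foxh1 peaks in 3-factor regions had a median percentile of 91.1 in dense clusters, 89.2 in clusters of 2 to 9 and 88.9 in single regions, while those alone on a region had 46.3, 45.1 and 42.4. Vegt peaks that shared a region with Otx1 but not Foxh1 had 94.0, 93.8 and 93.0, and those that shared it with Foxh1 but not Otx1 had 32.0, 33.8 and 33.5. Vegt peaks in 3-factor regions had 53.1, 50.7 and 49.8, and those alone on a region 45.8, 51.3 and 51.9. The Vegt ranks were thus highest beside Otx1 without Foxh1, lowest beside Foxh1 without Otx1, and near the middle of the list in the other two classes. Otx1 peaks in 3-factor regions had 65.4, 55.8 and 61.8, so here dense clusters and clusters of 2 to 9 lay further apart. Within 3-factor regions the summits lay close together. Peaks were merged into a region because they overlap, which limits these distances in advance. In dense clusters the median distance between the Vegt and Otx1 summits was 25.5 bp (21 to 29), between Otx1 and Foxh1 32 bp (28 to 36) and between Vegt and Foxh1 35 bp (29 to 41). In clusters of 2 to 9 these distances were 23, 28 and 29 bp. In dense clusters Vegt and Otx1 summits were within 100 bp of each other in 93.6% of the 298 regions.

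H3K4me1 was found on more of the regions in dense clusters than elsewhere. In dense clusters 661 of 2816 regions overlapped an H3K4me1 peak by at least 1 bp (23.5%, 21.9 to 25.1), against 3344 of 37058 in clusters of 2 to 9 (9.02%, 8.74 to 9.32) and 696 of 15346 single regions (4.54%, 4.22 to 4.88). Of all bound regions, 8.51% overlapped the mark. The difference between dense clusters and clusters of 2 to 9 was 14.4 percentage points, with a 95% Newcombe interval of 12.9 to 16.1. Regions in dense clusters were also longer. With the midpoint of the region in place of any overlap the shares were lower, at 14.7% in dense clusters, with a difference of 9.16 points (7.88 to 10.5).

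With regions pooled in bins of cluster size, the share climbed on both sides of the threshold of 10 regions. By the number of regions in the cluster it was 4.54% for 1, 6.71% for 2, 9.99% for 4 to 5, 15.8% for 8 to 9, 20.7% for 10 to 12, 26.5% for 13 to 15, 27.0% for 16 to 20 and 29.1% for more than 20, the last resting on 4 clusters. The share of 3-factor regions climbed over the same sizes, at 1.81%, 2.93%, 5.39%, 8.43%, 9.90%, 11.8% and 12.9%, and was 5.30% in those 4 clusters. Between single sizes the H3K4me1 share did not always rise, with 21.5% for 10 regions and 18.2% for 11. Counted by cluster, the link with size was weak among dense clusters. Their number of regions and share of regions overlapping H3K4me1 had a Spearman correlation of 0.13 over 222 clusters.

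**Figure D3:**
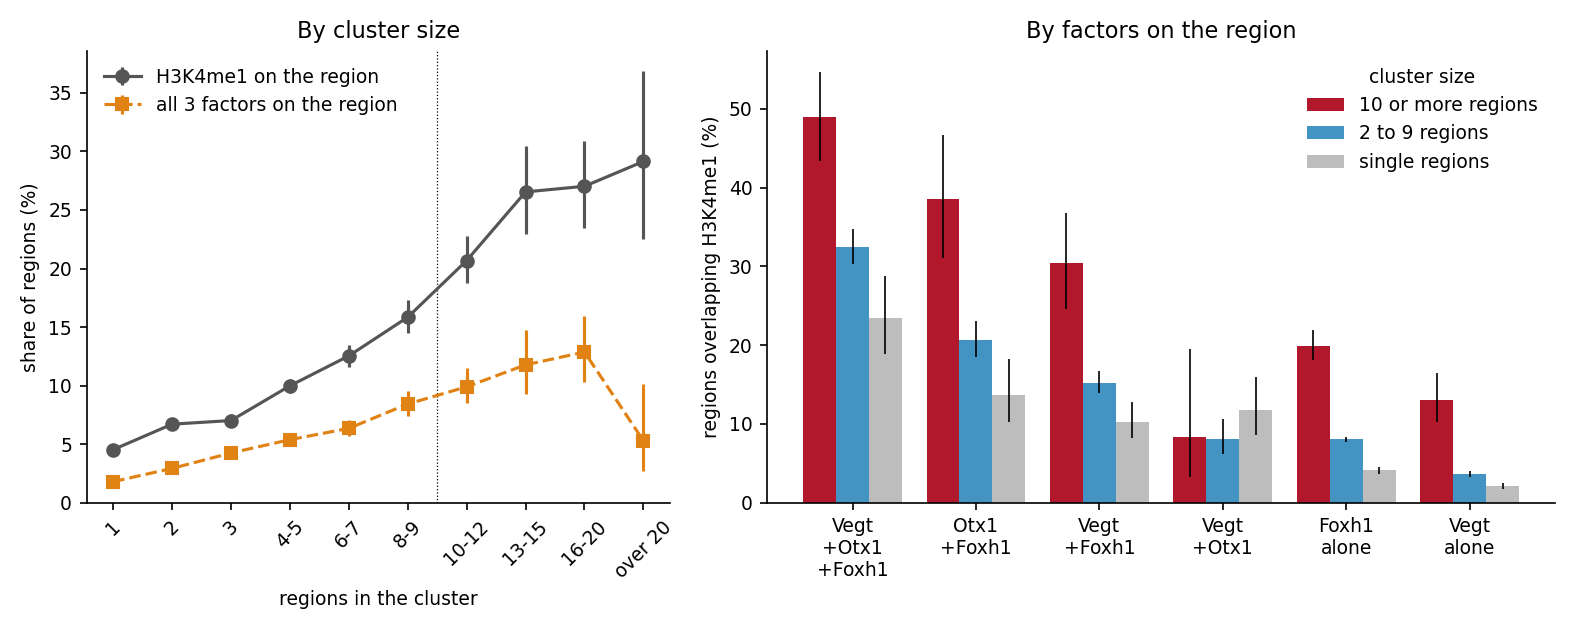
Left, share of bound regions (%) that overlap an H3K4me1 peak (circles) or hold all 3 factors (squares), by the number of regions in their cluster; the dotted line marks the threshold of 10. Right, share of regions (%) overlapping H3K4me1 by the factors on the region, with 49.0% for all 3 factors in dense clusters; error bars are 95% Wilson intervals.

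The difference in H3K4me1 was also present among regions with the same factors, except for Vegt with Otx1 and for Otx1 alone. For regions with all 3 factors the share overlapping H3K4me1 was 49.0% in dense clusters (146 of 298, 43.4 to 54.6), 32.5% in clusters of 2 to 9 and 23.5% when single. With Otx1 and Foxh1 it was 38.6%, 20.7% and 13.7%, and with Vegt and Foxh1 30.4%, 15.2% and 10.3%. With Foxh1 alone it was 20.0% (18.1 to 21.9), 8.03% and 4.11%, and with Vegt alone 13.0% (10.2 to 16.5), 3.65% and 2.11%. For Vegt with Otx1 it was 8.33% (4 of 48, 3.29 to 19.6), 8.16% and 11.8%, a difference that was not detectable at these counts. Otx1 was alone on 2 regions of dense clusters, of which 0 overlapped the mark. With each class in dense clusters set to its rate in clusters of 2 to 9, the share came to 11.1%, against the 23.5% found. This holds the class alone fixed. In each class but Otx1 alone, regions of dense clusters were also longer than those in clusters of 2 to 9. The median was 647 against 571 bp with all 3 factors and 321.5 against 296 bp with Foxh1 alone. The part of region length in these shares was not tested.

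The mark was not limited to the bound regions. H3K4me1 peaks covered 18.1% of the bound bases of dense clusters and 6.86% of the bases in the gaps between them. In the 12.5 kb flanks on either side, measured on the assembled chromosomes, they covered 1.83%. In clusters of 2 to 9 the same values were 7.39%, 2.25% and 0.88%, each below its counterpart in dense clusters and in the same order. Flanks hold no bound region by construction. Regions at the 2 ends of a dense cluster overlapped H3K4me1 in 15.5% of cases (12.5 to 19.2) and interior regions in 25.0% (23.3 to 26.7), and all 3 factors were on 6.08% and 11.4% of them. This order was not particular to dense clusters. In clusters of 2 to 9, H3K4me1 was on 7.46% of end regions and 11.8% of interior regions, and all 3 factors were on 3.59% and 6.68%. Clusters of 2 regions have ends alone, and their shares were low, at 6.71% with H3K4me1 and 2.93% with all 3 factors. Position and cluster size are thus mixed here, and the part of size was not tested.

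The H3K4me1 peaks in dense clusters were long rather than strong. There were 1018, or 6.39% of the list. Their median length was 677.5 bp (646 to 720), against 626 bp in clusters of 2 to 9, 594 bp at single regions and 472 bp for the 8912 H3K4me1 peaks away from all bound regions and clusters. Their median fold of 3.00 (2.97 to 3.05) was below the 3.11 in clusters of 2 to 9 and the 3.29 at single regions. It was also below the 3.08 of the H3K4me1 peaks away from all bound regions and clusters. In clusters, peaks that lay in gaps were counted too, whereas a peak at a single region had to overlap that region.

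H3K4me1 was spread unevenly over the dense clusters. At least 1 H3K4me1 peak was found in 167 of the 222 (75.2%, 69.1 to 80.4), against 21.9% of clusters of 2 to 9 and 22.9% of all clusters of 2 or more regions, though dense clusters were also longer and the part of length in this count was not tested. The other 55 dense clusters had none. No bound region overlapped the mark in 60 dense clusters, up to 25% of regions did in 77, over 25 to 50% in 56 and over 50% in 29. The 22 dense clusters with the most marked bases held 37.8% of the 842 kb under H3K4me1 peaks. The median share of length under the mark was 5.31% (3.52 to 6.83).

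The 3 dense clusters with the highest share of length under H3K4me1 were not those with the most regions. At Chr01:160313466-160354824, 61.8% of 41.4 kb was under 16 H3K4me1 peaks and 9 of 11 regions overlapped one. That cluster had Foxh1 on 10 regions, Vegt on 4, Otx1 on 1 and no region with all 3 factors. At Chr03:86516773-86545077 the share of length was 49.7%, with 8 of 11 regions marked, and at Chr06:37218823-37241415 it was 42.1%, with 9 of 13 regions marked. The Chr03 cluster lay 34426 bp from the cluster of 19 regions at Chr03:86579504-86648421, where 13.2% of the length was under the mark.

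At the other end of the range, among the 55 dense clusters with no H3K4me1 peak, those with the most regions lay at Chr03:76594283-76673544 with 19 regions over 79.3 kb, at Chr03:52846319-52879255 with 18 regions over 32.9 kb and at scaffold_94:319640-369636 with 16 regions over 50.0 kb. The first of these had Foxh1 on 16 regions, Vegt on 7 and Otx1 on 1. On the third Vegt led, with 11 regions against 7 with Foxh1. A high number of bound regions at stage 8 thus did not always go with the mark in vegetal tissue at stage 10.5.

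**Figure D4:**
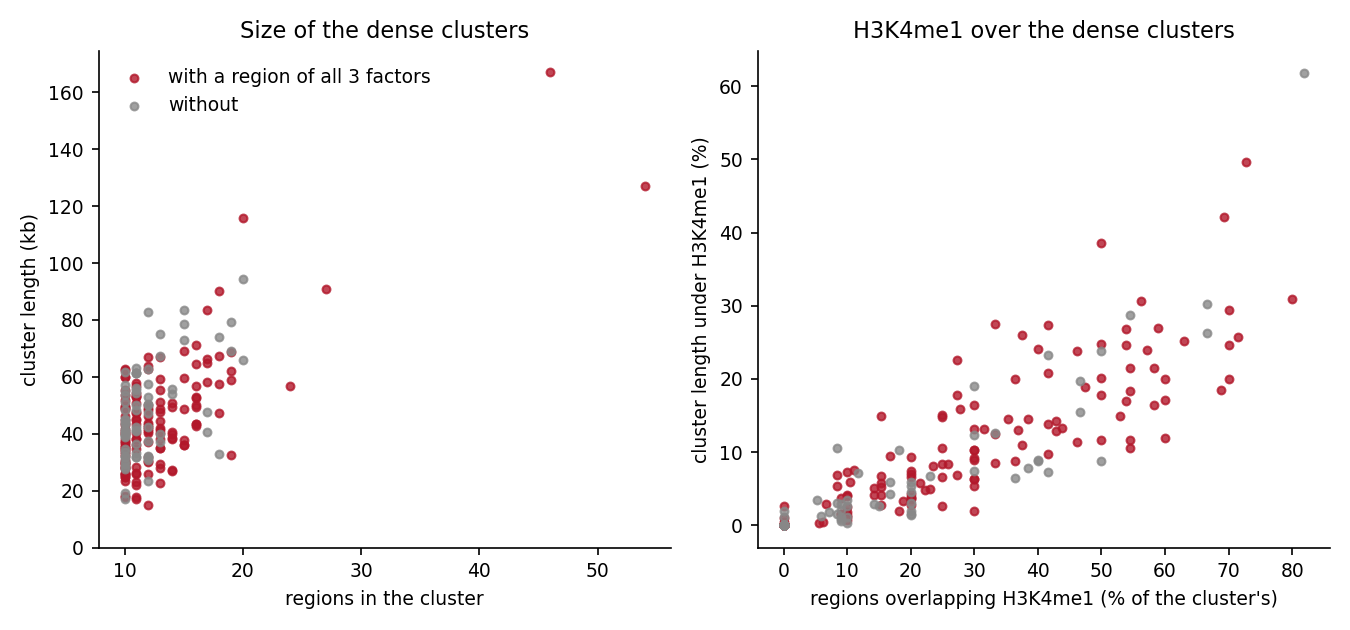
Each point is 1 of the 222 dense clusters, in red where at least 1 region holds all 3 factors. Left, cluster length (kb) against the number of regions, with 54 and 46 regions in the 2 largest; right, share of cluster length (%) under H3K4me1 peaks against the share of its regions (%) that overlap one, with 60 clusters at 0 on the horizontal axis.

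Dense clusters with a 3-factor region carried the mark somewhat more often than those without. An H3K4me1 peak was in 118 of 148 with such a region (79.7%, 72.5 to 85.4) and in 49 of 74 without (66.2%, 54.9 to 76.0), and the mark covered 9.37% and 6.02% of their summed length. The intervals of the 2 shares overlap. In clusters of 2 to 9 regions the shares were 47.0% and 18.3%. Clusters with a 3-factor region were also larger, with a median of 4 regions against 2 in this group and 12 against 11 in dense clusters. The part of size in these shares was not tested. Across the 222 dense clusters the share of regions with all 3 factors and the share overlapping H3K4me1 had a Spearman correlation of 0.29, and the share with Vegt and the share overlapping H3K4me1 one of 0.03. With the same H3K4me1 share, the correlation was 0.23 for the share with Otx1, 0.20 for regions per 10 kb and 0.13 for the number of regions. It was 0.11 for the median Foxh1 fold percentile (221 clusters) and -0.05 for the share of Foxh1-alone regions. All are descriptions over clusters that share the same lists.

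Dense clusters were found on each of the 10 assembled chromosomes, and their share stood furthest above that of bound regions on Chr03. Chr01 and Chr03 had 37 each (16.7% of 222, 12.3 to 22.1), Chr02 and Chr04 had 27 each, Chr05 had 21, Chr08 had 20, Chr07 had 19, Chr06 had 17, Chr09 had 6 and Chr10 had 1. Chr03 held 11.1% of all bound regions, below the interval of its share of dense clusters, and had 2.70 dense clusters per 10 Mb between its first and last bound region. Chr01, with as many, had 1.90. On the other 9 the share of bound regions lay inside the interval. The intervals make no allowance for the 10 chromosomes looked at. They also treat dense clusters as independent, although some lie next to each other. Chr10, the lowest, had 0.25 per 10 Mb, with 0.45% of dense clusters (0.080 to 2.51) beside 1.93% of bound regions.

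**Figure D5:**
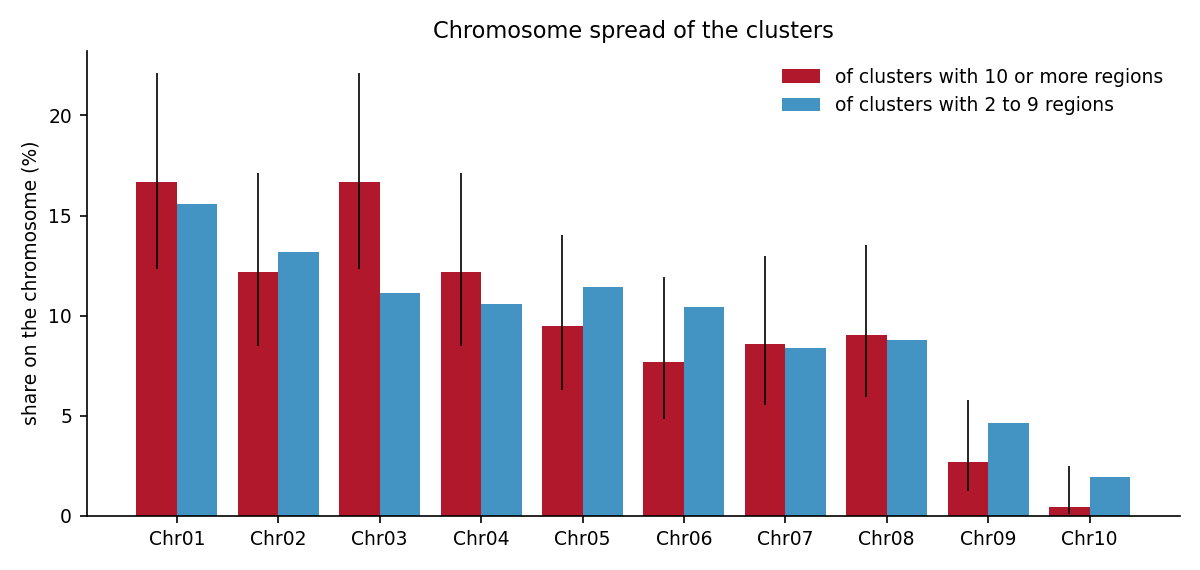
Share (%) of the clusters with 10 or more regions (red, with 95% Wilson intervals) and of the clusters with 2 to 9 regions (blue) on each assembled chromosome. Chr03 holds 16.7% of the dense clusters and 11.1% of the smaller ones, and Chr10 holds 0.45% and 1.92%.

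The chromosomes also differed in how many regions of their dense clusters were marked. In the 21 dense clusters of Chr05, 35.5% of regions overlapped H3K4me1, the highest share, and in the 27 of Chr04 17.2% did. Among chromosomes with at least 6 dense clusters, Chr09 was lowest, at 16.9%. Large clusters weigh more in these shares, such as the cluster of 46 regions on Chr05, and shares without it were not computed. The shares carry no interval. H3K4me1 on the other bound regions of each chromosome was not computed either, so they are not set against the chromosome's own level. The median share of a dense cluster's length under the mark was also highest on Chr05, at 11.4%. It was 2.04% on Chr04 and 7.57% on Chr09, so by this measure Chr09 was not lowest. On Chr03, where dense clusters were frequent, the share was 21.3%, close to the 23.5% over all.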

How the data were processed

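ChIP was done on formaldehyde-fixed embryos per the labels' protocols. The submitters' processing notes name Bowtie2 2.2.7, without its role; neither notes nor labels name a peak caller. The deposited names of the 3 factor lists mark them as kept after a reproducibility filter (IDR). The authors called peaks on pooled replicates, 1 list each, and computed each peak's fold enrichment (a ratio) before they deposited the 4 lists; the files have no headers, and column 7 was read as this fold and column 10 as the summit offset from their values. Peaks within a list did not overlap each other. The lists are ranked by fold within themselves, never against each other.

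Merging, stitching and overlaps were computed in Python 3.11.15 with pandas 2.3.3, numpy 2.4.6 and scipy 1.17.1, and tested on planted clusters; bedtools 2.31.1 gave the same 55220 regions and 222 dense clusters. H3K4me1 overlap required at least 1 bp. Region and cluster positions are 1-based. Figures used matplotlib 3.10.9.

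The members and measures were chosen with earlier results of these data known. Clusters named are the 10 with the most regions, the 3 with the highest and the 3 with the lowest share of length under H3K4me1, the 3 with the most 3-factor regions and the 3 with the most regions per 10 kb; ties went to more regions, then length. Clusters named beyond these were chosen after their values were seen. The 6 RNA tables were not used. Alternatives changed the gap, the minimum number of regions, the peak thresholds, the lists, the scaffolds and the overlap rule.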

Additional observations from a re-analysis of the deposited data

How the results depend on the processing

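The H3K4me1 difference between dense and smaller clusters stayed positive in all 12 alternatives, of which the midpoint rule and leaving out the 2 largest clusters were chosen after seeing the data. It was the one difference between the groups that was computed again; the other values below are those of dense clusters. No paired analysis was possible because each list pools its replicates, and for the same reason no replicate could be left out. Over those 12 alternatives, 34 values moved out of their interval or by over 1.5 times and 28 did not. Percentiles below are medians over the pooled peaks of all lists used. With the main settings this median was 53.8 (51.9 to 55.8). With gaps of at most 5000 bp there were 31 dense clusters, with a median length of 21250 bp, 27.8% of regions overlapping H3K4me1, a difference of 16.3 points and 22.6% on 1 chromosome. With gaps of at most 25000 bp there were 866, of 89471.5 bp, with 6.99% of regions holding all 3 factors, a median fold percentile of 51.5, 13.7% with H3K4me1 and a difference of 6.20 points. With a minimum of 15 regions there were 44, of 60876 bp, with a percentile of 51.6, 26.9% with H3K4me1 and a difference of 17.8 points. With peaks at or above their list's median fold there were 17, with 7.58% of regions holding all 3 factors. H3K4me1 was on 29.4% of their regions and the difference was 16.5 points. The kept peaks were ranked anew, so their percentile of 66.6 is not on the scale of the full lists, though it counts among the values that moved. Without the Foxh1 list there were 13, of 40291 bp, with 26.8% of regions overlapping H3K4me1. The percentile was 62.8, over Vegt and Otx1 peaks alone. Each of the 13 overlapped a dense cluster of the full lists. Without the Vegt list there were 114, of 40097.5 bp, with 27.2% with H3K4me1. Without the Otx1 list there were again 222, of which 221 overlapped a dense cluster of the full lists. Removal of a list only takes peaks away, so each cluster left lies within a stitched stretch of the full lists. The overlaps given without Foxh1 and without Otx1 were thus nearly fixed in advance. Leaving out a list leaves no 3-factor share to give. With at least 50% of a region under the mark, H3K4me1 was on 15.8% of regions and the difference was 9.83 points; with H3K4me1 peaks at or above their list's median fold these were 12.9% and 7.42 points, and with the midpoint rule 14.7% and 9.16 points. On assembled chromosomes alone, 212 dense clusters remained and no value moved. The number of peaks in a list, set by depth and threshold, limits all counts of clusters.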

Other observations

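Some dense clusters were neighbours of each other. Of the 205 pairs of neighbouring dense clusters on 1 chromosome or scaffold, with a median gap of 3.06 Mb, 10 were within 50 kb. The closest were 10 regions at Chr08:74052062-74100686 and 16 regions at Chr08:74114089-74156815, 13402 bp apart, just over the stitching limit. The cluster of 20 regions at Chr01:131223970-131339771 had a neighbour of 13 regions 18400 bp away, so that 33 bound regions lay in this part of Chr01.

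Scaffolds outside the assembled chromosomes held 10 dense clusters on 7 scaffolds, 3 of them on scaffold_94. In these 10 clusters 11.6% of regions overlapped H3K4me1, below the 23.5% over all dense clusters. Those on scaffold_94 held 37 regions, of which 2 overlapped the mark. The share over all bound regions on scaffolds was not computed. The 1 dense cluster with no Foxh1 peak lay at Chr02:12974502-12991632, where all 10 regions had Vegt and no region had Otx1 or an H3K4me1 peak. At Chr08:72662354-72729742 Otx1 was on 11 of 18 regions, the most in any dense cluster, and the highest Otx1 fold was 11.3. Of all 18 regions in that cluster, 4 overlapped H3K4me1.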
